A study of Mus musculus with 16 samples.

Results

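The RNAs described here are 18 long non-coding RNAs (lncRNAs) and host transcripts, chosen by name: *Gas5* and the small nucleolar RNA host genes named *Snhg* plus a number, the microRNA host genes named *Mir...hg*, *Dleu2* and *Pvt1*. They are 18 of the 12080 RNA names found in the Input or H3K27me3-RADIP table of RNA–DNA pairs, against 1282 lncRNA names, and each library listed 16 of them. By these names 10 are small nucleolar RNA (snoRNA) hosts and 7 are microRNA (miRNA) hosts. *Pvt1* is neither in the annotation used (GENCODE M21), which places no snoRNA or miRNA gene on its strand within it, so the set is called by its names and not as snoRNA hosts as a whole.

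All libraries came from PGK12.1 mouse embryonic stem cells (mESCs) grown with Leukemia Inhibitory Factor and crosslinked with 1% formaldehyde; no genotype or treatment separates the 2 conditions. In both, nuclear RNA was ligated through a bridge adaptor to the genomic DNA beside it and the RNA and DNA ends were sequenced. H3K27me3-RADIP was selected with an antibody against H3K27me3, and Input was the same ligated material without selection. The labels hold 8 libraries per condition. These libraries came from fewer biological replicates, and the labels do not say which belong together. The authors merged them into 1 table each, so every comparison below is between 2 merged libraries and not between replicated conditions, no p-value is given, and intervals cover counting error only. Of 11 stem cell marker RNAs 5 were listed in Input and 6 in H3K27me3-RADIP (2992 and 3118 pairs, led by *Esrrb* with 2388 and 2500), and of 8 markers of other lineages 2 and 3 were listed (38 and 77 pairs, with *Pax6* at 21 in H3K27me3-RADIP). *Pou5f1* and *Nanog* had no listed pair in either library, and a listed pair is a chromatin contact above background, not a measure of RNA level.

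Host genes of small RNAs make a long transcript of which the best known product is cut out of it. In snoRNA hosts, box C/D or box H/ACA snoRNAs sit in introns, are released after splicing and guide modification of ribosomal RNA, while the spliced exons are often removed by nonsense-mediated decay. In miRNA hosts, Drosha and Dgcr8 cut hairpins from the nuclear transcript, and Dicer trims them to the mature miRNA, whose seed (bases 2 to 8) selects its targets. *Pvt1* is a lncRNA transcribed next to the growth regulator *Myc*, and H3K27me3 is the mark that Polycomb repressive complex 2 places on silent developmental genes.

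All 7 miRNA hosts were past the fold limit or listed in 1 library. The main miRNAs of 4 of them are shown first, because these hosts carry related products and did not all differ in 1 direction. The sequences are from RefSeq (GRCm38.p6), 5′ to 3′, with the seed in capitals. Of the 14 miRNA genes annotated in the 4 hosts, 13 had an entry for the mature miRNA looked up, which gave 12 mature miRNAs with 8 seeds. The remaining one is *Mirlet7a-2* of *Mir100hg*. Of the 12, miR-18a-5p, miR-19a-3p and miR-92a-3p of *Mir17hg* are not printed.

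*Mir100hg*, miR-100-5p: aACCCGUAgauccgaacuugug
*Mir99ahg*, miR-99a-5p: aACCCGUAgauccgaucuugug
*Mir100hg* and *Mir99ahg*, miR-125b-5p: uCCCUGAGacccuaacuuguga
*Mir99ahg*, let-7c-5p: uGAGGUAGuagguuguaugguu
*Mir17hg*, miR-17-5p: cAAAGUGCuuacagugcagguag
*Mir17hg*, miR-20a-5p: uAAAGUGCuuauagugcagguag
*Mir17hg*, miR-19b-3p: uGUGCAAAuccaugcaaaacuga
*Dleu2*, miR-15a-5p: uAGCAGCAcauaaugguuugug
*Dleu2*, miR-16-5p: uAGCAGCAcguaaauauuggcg

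*Mir100hg* on chromosome 9 and *Mir99ahg* on chromosome 16 each hold 3 miRNA genes, a miR-99/100 gene, a let-7 gene and a miR-125b gene, and their miR-100-5p and miR-99a-5p have 21 of 22 bases in common. *Mir17hg* packs 6 miRNA genes into a transcript of 3.85 kb on chromosome 14, and miR-17-5p and miR-20a-5p share a seed and 21 of 23 bases. *Dleu2*, also on chromosome 14, carries miR-15a-5p and miR-16-5p, with 1 seed and 16 of 22 bases in common.

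Pairs listed under the host names seldom had a tag on an annotated small RNA. The annotation holds 244 snoRNA genes and 21 miRNA genes on the strand of the hosts, 208 of the snoRNA genes in *Snhg14* alone, where no listed tag lay in the stretch that holds them. Tags had to map to 1 place in the genome and belong to 1 gene to be listed. Both rules limit how many could fall on these genes under a host's name, so the absence of tags there is not a measure of contact. *Pvt1* holds no annotated snoRNA or miRNA gene on its strand and is left out of the counts that follow. Of the other RNAs' 785 Input pairs, 2 had an RNA tag that overlapped a small RNA gene, both among the 28 pairs of *Gas5*. Of their 810 H3K27me3-RADIP pairs, 2 of the 17 *Gas5* pairs and 1 *Snhg16* pair (on *Snord1a*) had such a tag. Under the small RNAs' own identifiers the tables listed 8 pairs in Input, of the snoRNA gene *Gm26003* within *Snhg17*, and none in H3K27me3-RADIP.

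*Pvt1* supplied most of the pairs. Input listed 5620 *Pvt1* pairs and H3K27me3-RADIP 5814, the highest count of any lncRNA in Input and the second highest in H3K27me3-RADIP. The other RNAs together had 785 and 810 pairs, led by *Snhg16* with 321 and 380. All pairs of the 18 RNAs were in *cis*, with 0 pairs on another chromosome. The RNAs made up 16.1% of lncRNA pairs in Input (95% Wilson interval 15.8 to 16.5) and 12.9% in H3K27me3-RADIP (12.6 to 13.1), and *Pvt1* alone 14.4% and 11.4%. The lncRNA total grew from 39083 to 51049 pairs between the libraries, and without *Kcnq1ot1* and *Malat1* in it the shares were 19.6% and 17.6%.

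Pairs per RNA were compared as log2 of H3K27me3-RADIP over Input, scaled by the trimmed mean of M-values over lncRNA names (TMM), with an exact binomial interval and a fold limit of 0.5. All 14 RNAs listed in both libraries had at least 20 pairs together. Of these, 3 were higher past the limit and 5 lower. Among all 444 lncRNA names with that many pairs, 30.6% were higher and 28.4% lower, so the numbers of members past the limit were near those of lncRNAs in general. The median of the 14 was -0.04, against 0.01 over the 444. Only 4 of the 8 had an interval that left out 0, and those were *Mir100hg* and *Mir670hg* (higher) and *Snhg4* and *Dleu2* (lower).

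**Figure D1:**
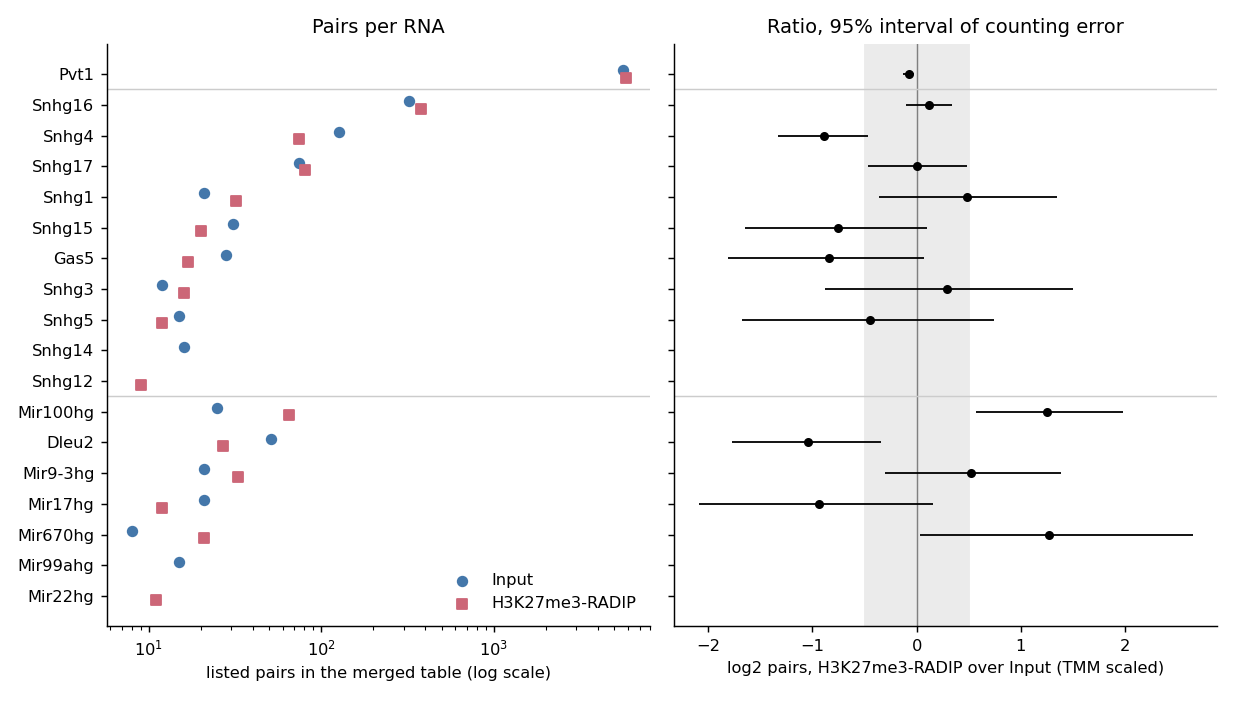
Left, listed pairs of each RNA (log axis) in Input (circles) and H3K27me3-RADIP (squares); right, log2 ratio of the pairs with its 95% interval of counting error, the grey band marking the fold limit of 0.5. *Pvt1*, at 5620 and 5814 pairs, lies far above the other RNAs and within the band, and the 4 RNAs with no ratio were listed in 1 library only.

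Among the snoRNA hosts, 0 of the 8 compared were higher past the limit and 3 were lower. Of all 444 lncRNA names 30.6% were higher and 28.4% lower. The median log2 ratio of the 8 was -0.22, against 0.01 over the 444. *Snhg1* passed the limit at 0.57 with TMM over all RNA names, and *Snhg5* at -0.58 with repeated positions counted once. *Snhg4* fell from 126 pairs in Input to 74 in H3K27me3-RADIP (log2 ratio -0.89, interval -1.33 to -0.47). This name covers 2 gene identifiers on chromosome 18: one of class lncRNA with 25 and 13 pairs, and one that the tables class as protein coding, over *Matr3* on the same strand, with 101 and 61. Both parts were lower, and reads of the second cannot be told apart from *Matr3*.

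*Gas5*, a growth-arrest transcript with 10 annotated snoRNA genes, had 28 Input pairs and 17 H3K27me3-RADIP pairs (-0.85, -1.81 to 0.07). *Snhg15* had 31 and 20 (-0.76, -1.65 to 0.10). Both counts are small, and both intervals include 0. Under the stricter limit of q at most 0.01 the *Snhg15* ratio turned to 0.34, since 2 of its 3 Input bins were then lost.

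The remaining snoRNA hosts lay within the limit. *Snhg16* had a ratio of 0.12 (-0.10 to 0.34) and *Snhg17*, with 74 and 81 pairs, a ratio of 0.01 (-0.47 to 0.48). *Snhg1* had 21 and 32 pairs, *Snhg3* 12 and 16, and *Snhg5* 15 and 12, and their intervals all spanned 0.

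The miRNA hosts were split, with 3 of 5 higher past the limit and 2 lower, beside the 30.6% and 28.4% of all 444 lncRNA names. With q at most 0.01, *Mir100hg* was the only one of the 3 still past it: *Mir9-3hg* was at 0.47, and *Mir670hg* had no value. *Mir100hg* rose from 25 pairs to 65 (log2 ratio 1.25, interval 0.57 to 1.98), and the ratio was 2.27 with q at most 0.01. Its relative *Mir99ahg*, which shares the seeds of its miR-99a-5p and miR-125b-5p, was listed only in Input, with 15 pairs. *Mir670hg* rose from 8 to 21 pairs (1.27, 0.03 to 2.65), all of its H3K27me3-RADIP bins having 7 pairs each and a q-value of 0.0787. *Mir9-3hg*, a host of miR-9, had 21 and 33 pairs (0.53, -0.31 to 1.39). Thus the *Mir100hg* difference had the interval farthest from 0 among the higher RNAs.

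Both hosts on chromosome 14 were lower. *Dleu2* fell from 51 pairs to 27 (-1.04, -1.77 to -0.34), with a ratio of -0.51 at q at most 0.01 and of -1.79 outside the bin of the RNA tag. *Mir17hg* had 21 and 12 (-0.93, -2.09 to 0.16), with an interval that included 0.

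Of the 18 RNAs, 4 appeared in a single library, *Snhg14* (16 pairs) and *Mir99ahg* (15) in Input and *Mir22hg* (11) and *Snhg12* (9) in H3K27me3-RADIP. Among all 1282 lncRNA names 55.4% were listed in 1 library only. A name that is not listed had no combination of RNA and 25-kb bin past the q-value limit, which is not the same as 0 pairs before background removal, so no fold is given for these.

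The exonic share, the percentage of an RNA's pairs whose RNA tag the tables place outside introns, separated the RNAs into sets that were alike in both libraries. *Gas5* (28 of 28 and 17 of 17 pairs), *Snhg1* (21 of 21 and 32 of 32) and *Snhg12* (9 of 9 in H3K27me3-RADIP) had exonic tags in every pair. *Snhg17*, at 85.1% in Input (75.3 to 91.5) and 91.4% in H3K27me3-RADIP (83.2 to 95.8), *Snhg15*, at 80.6% and 85.0%, and *Mir17hg*, with 19 of 21 and 12 of 12, were also mostly exonic. These are compact genes of 2.40 to 7.88 kb. All 6 RNAs thus met DNA mainly with tags annotated as exonic. In *Gas5* the exonic label also covered the 4 tags that overlapped snoRNA genes, so it does not by itself mean spliced exon sequence.

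At the other end, *Pvt1* had 107 exonic pairs in Input, 1.90% (1.58 to 2.30), and 92 in H3K27me3-RADIP, 1.58% (1.29 to 1.94). *Mir100hg* had 0 of 25 and 3 of 65, and *Mir99ahg* 0 of 15, where 0 of 15 allows a share of up to 20.4% (Wilson). These 3 genes span 340 to 537 kb, and nearly all of their contacts came from intron sequence. Length alone did not order the shares: *Snhg14*, at 668 kb, had 4 of 16 Input pairs exonic, while the compact *Mir22hg* had 1 of 11 in H3K27me3-RADIP.

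*Snhg16* stood between, with 99 exonic pairs in Input, 30.8% (26.0 to 36.1), and 119 in H3K27me3-RADIP, 31.3% (26.9 to 36.1). In M21 the *Snhg16* gene ends at position 116675799 of chromosome 11, but 196 of the Input tags and 224 of the H3K27me3-RADIP tags lay beyond that end, 192 and 220 of them assigned to introns by the newer annotation of the tables. The intronic tags of *Snhg16* therefore came mostly from downstream of the gene as M21 draws it. *Snhg5* showed the same for 10 of 15 and 10 of 12 tags.

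No member's exonic share differed between libraries by more than its counting error. The largest differences were in the RNAs with fewest pairs, *Snhg5*, 6 of 15 against 2 of 12 (difference -23.3 points, Newcombe interval -50.4 to 11.3), and *Snhg3*, 1 of 12 against 5 of 16 (22.9 points, -9.1 to 48.2). Over all pairs of the 18 RNAs the Input share of 6.46% and the H3K27me3-RADIP share of 6.27% were set by *Pvt1*; with each listed RNA given the same weight it was 38.9% and 46.8%, and over the 14 RNAs in both libraries 42.7% and 45.7%. Over all lncRNA pairs it was 28.3% and 36.3%, or 13.0% and 12.7% without *Kcnq1ot1* and *Malat1*, and the median lncRNA name of the 444 had 2.37% and 3.15%.

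**Figure D2:**
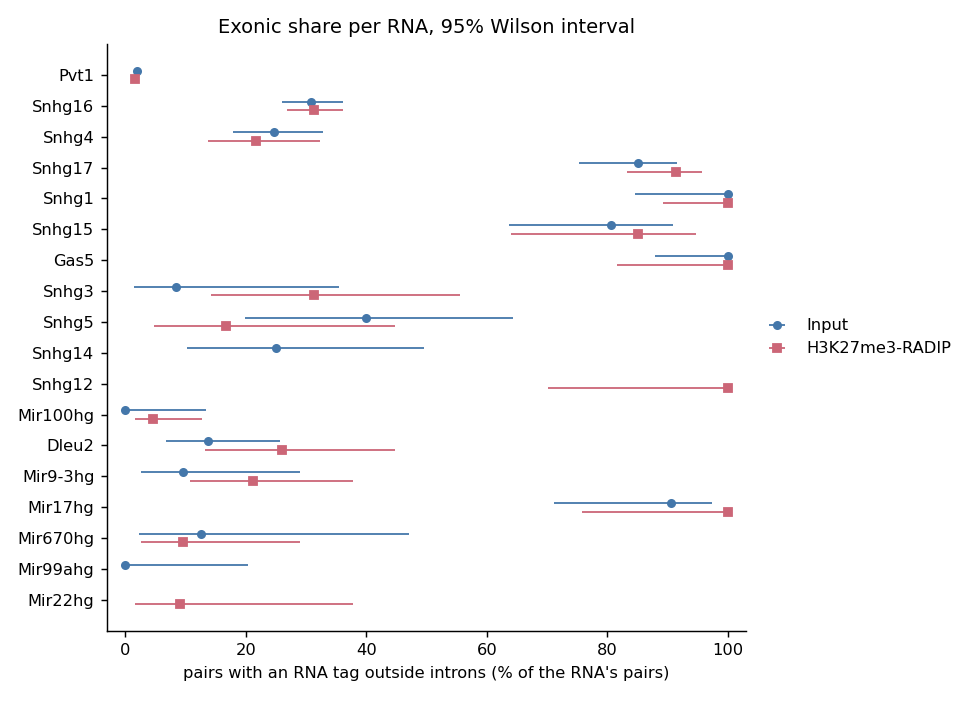
Share of each RNA's pairs whose RNA tag lay outside introns, with 95% Wilson intervals, in Input (circles) and H3K27me3-RADIP (squares). The intervals of the 2 libraries overlap for every RNA listed in both, from *Pvt1* near 2% to *Gas5* and *Snhg1* at 100%.

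Apart from *Pvt1*, the RNAs contacted DNA near their own genes. The median distance between tag centres, over all pairs other than those of *Pvt1*, was 5.84 kb before selection (Input) and 7.60 kb after it, and no such pair spanned more than 1 Mb. Of the 14 RNAs, 7 had a longer median in H3K27me3-RADIP (6 of 13 without *Pvt1*), against 59.8% of 443 lncRNA names with *cis* pairs. In 6 of the 14, *Pvt1* among them, the number of 25-kb bins was higher in H3K27me3-RADIP, in 6 it was the same and in 2 it was lower, against 39.9%, 36.5% and 23.6% of the 444 lncRNA names.

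In H3K27me3-RADIP *Snhg16* reached farthest of these, while in Input *Mir100hg* had the longest single distance (268 kb against 252 kb) and *Snhg15* (24.0 kb) and *Dleu2* (12.3 kb) had longer medians. The *Snhg16* median distance went from 9.28 kb (Input) to 17.3 kb, and pairs over 100 kb numbered 48 (15.0%) and 81 (21.3%). It had 11 bins in Input and 15 in H3K27me3-RADIP, 9 of them in common (81.8% and 60.0%). In both libraries the bin over the 3′ end of the gene and *St6galnac2* held most pairs, 153 and 166. Bins with median distances of 518 kb, upstream at *Fbf1* (10 pairs), and of 369 and 382 kb downstream (9 and 10 pairs) were listed only in H3K27me3-RADIP.

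Some of the smaller hosts were listed at the start sites of neighbouring genes, while no bin of *Snhg17*, *Snhg5*, *Mir17hg*, *Mir9-3hg*, *Mir670hg* or *Mir100hg* held a protein-coding start site. *Gas5* had 1 bin, that with the start site of *Zbtb37*, in both libraries. *Snhg3* had the bin of *Rcc1*, and *Snhg1* the bin of *Stx5a* and *Wdr74*, with a neighbouring bin at the start of *Slc3a2* (12 pairs) only in H3K27me3-RADIP. *Mir100hg* kept to its own gene, with 3 bins in Input and 7 in H3K27me3-RADIP, 1 of them in common, and 8 to 12 pairs in each. *Dleu2* had 4 bins in Input and 2 in H3K27me3-RADIP, 1 in common; the Input bin at *Kpna3*, 225 kb away by the median, held 8 pairs.

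*Pvt1* is encoded on the plus strand of chromosome 15, at chr15:62037986-62378096 (GRCm38), and its contacts spread far beyond the gene. The RNA tags were spread along the transcript, 4624 distinct positions in Input and 4541 in H3K27me3-RADIP. With the gene cut into 5 equal lengths, the second from its start gave 37.2% and 36.0% of the tags and the last 0.836% and 0.550%. The 3 positions below recurred most, all intronic, 99.8 to 122 kb from the start of the gene, and each sequence occurs at 1 place on chromosome 15. They are shown 5′ to 3′, as 24 bases that both ways of counting the tags' coordinates share, read from the RefSeq genome (GRCm38), all letters in lower case since no motif is marked.

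*Pvt1* tag at chr15:62148930-62148953, plus strand: ttgtttggtaagcactcatcatgt
*Pvt1* tag at chr15:62137791-62137814, plus strand: aaagggctaataaaggtacatagt
*Pvt1* tag at chr15:62159523-62159546, plus strand: agcatgccattccagccaaggttc

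The first was paired with DNA 38 times in Input and 36 times in H3K27me3-RADIP, at 36 and 33 different DNA positions in 31 and 27 bins. The second had 21 and 16 pairs and the third 9 and 14. The repeats of the RNA end were thus joined to many DNA ends rather than to 1, and the order of the first and second was the same in both libraries.

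The number of *Pvt1* pairs hardly differed between libraries (log2 ratio -0.08, interval -0.13 to -0.02), but their distances did. The median distance was 316 kb in Input (order-statistic interval 291 to 340) and 386 kb in H3K27me3-RADIP (351 to 417). Pairs up to 25 kb made up 13.6% and 11.8%, and pairs from 100 kb to 1 Mb 41.6% and 36.3%, a difference of -5.28 points (-7.06 to -3.49). Pairs from 1 to 5 Mb rose from 26.6% to 30.9%, by 4.29 points (2.63 to 5.94), and pairs over 5 Mb from 0.819% (46 pairs) to 4.59% (267 pairs). With q at most 0.01 the medians were 285 and 299 kb and the shares over 5 Mb 0.184% and 1.59%.

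**Figure D3:**
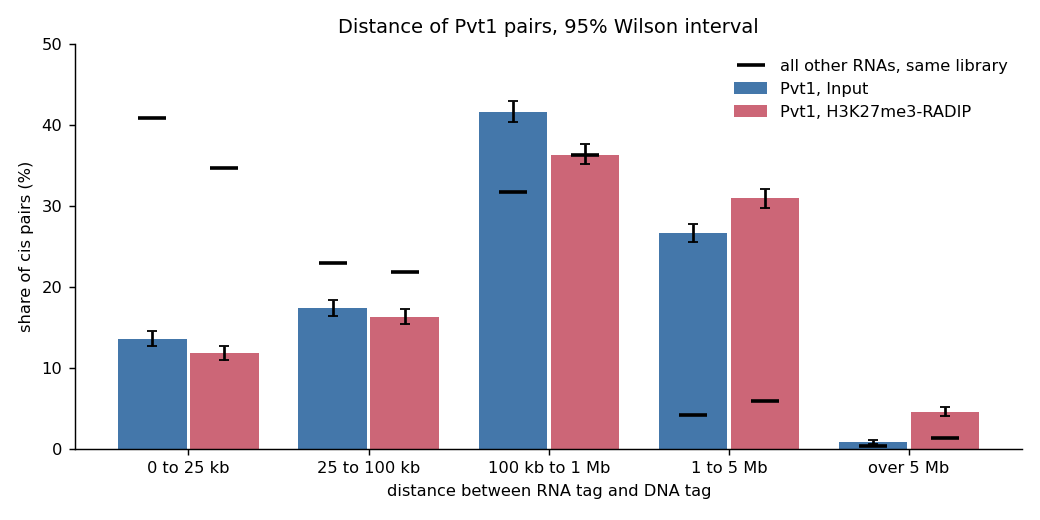
Share of *Pvt1* pairs in each distance category (bars, 95% Wilson intervals) in Input and H3K27me3-RADIP; the black marks give the share for the *cis* pairs of all other RNAs in the same library. *Pvt1* exceeds the other RNAs in both categories over 1 Mb, and its H3K27me3-RADIP bars are the higher ones there.

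Longer distances in H3K27me3-RADIP were not particular to *Pvt1*. Of all other *cis* pairs 4.16% in Input and 5.87% in H3K27me3-RADIP spanned 1 to 5 Mb, and 0.352% and 1.34% more. Among 188 RNAs with at least 1000 *cis* pairs in each library, *Pvt1* ranked 8 in Input and 9 in H3K27me3-RADIP for the share over 1 Mb, with 27.5% and 35.5% against medians of 5.10% and 8.36%. Its gain of median distance, 1.22 times, ranked 121 and was below the median of 1.32 times. For the share over 5 Mb, *Pvt1* ranked 22 and 17.

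On the DNA side, *Pvt1* pairs were divided among upstream, gene and downstream in like amounts, 28.8%, 37.4% and 33.9% in Input and 31.0%, 34.7% and 34.3% in H3K27me3-RADIP. The share over the gene itself was lower in H3K27me3-RADIP, by -2.66 points (-4.42 to -0.90). The bin with the start of *Myc*, the neighbouring proto-oncogene, held 140 and 136 pairs (log2 ratio -0.17, -0.52 to 0.18). Contacts with *Myc* thus did not differ beyond counting error.

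Farther out, the contacts did not decline evenly. In steps of 500 kb from the start of *Pvt1*, the window 0.5 to 1 Mb downstream fell from 543 to 395 pairs (log2 ratio -0.58, -0.78 to -0.39) and that 0.5 to 1 Mb upstream held 301 and 243 (-0.43, -0.68 to -0.19). Between 1.5 and 2 Mb downstream counts rose again to 389 and 418, above those of the window before it (342 and 289). Bins there held up to 46 pairs in Input and 56 in H3K27me3-RADIP, and these highest bins held no protein-coding gene. The window also holds the starts of the gasdermin C genes (*Gsdmc*, *Gsdmc2*, *Gsdmc3*, *Gsdmc4*), but the bin with the start of *Gsdmc* had 11 and 14 pairs.

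Upstream, no *Pvt1* pair was listed in Input between 1.5 and 2 Mb and 13 were listed in H3K27me3-RADIP. The next window, 2 to 2.5 Mb upstream, with the start of *Trib1*, a pseudokinase gene, went from 140 to 236 pairs (log2 ratio 0.63, 0.32 to 0.94) and from 12 to 18 bins. The bin with the *Trib1* start itself had 19 and 25 pairs (0.27, -0.65 to 1.21), which did not differ beyond counting error. The window from 3 to 3.5 Mb upstream went from 42 to 95 (1.05, 0.51 to 1.61). Downstream, the window from 4.5 to 5 Mb, with *Ndrg1* and *Ccn4*, went from 11 pairs in 1 bin to 59 in 7 bins. The bin of the *Ccn4* start was unchanged, at 11 and 11, while that of the *Ndrg1* start was listed only after selection, with 10. Several of the newly listed bins, that over *Tg* and *Sla* among them, held 8 pairs. This is below the smallest *Pvt1* bin listed in Input (9), so part of the rise in bins may reflect that limit. Windows with more pairs in H3K27me3-RADIP thus lay mostly farther from the gene than those with fewer.

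**Figure D4:**
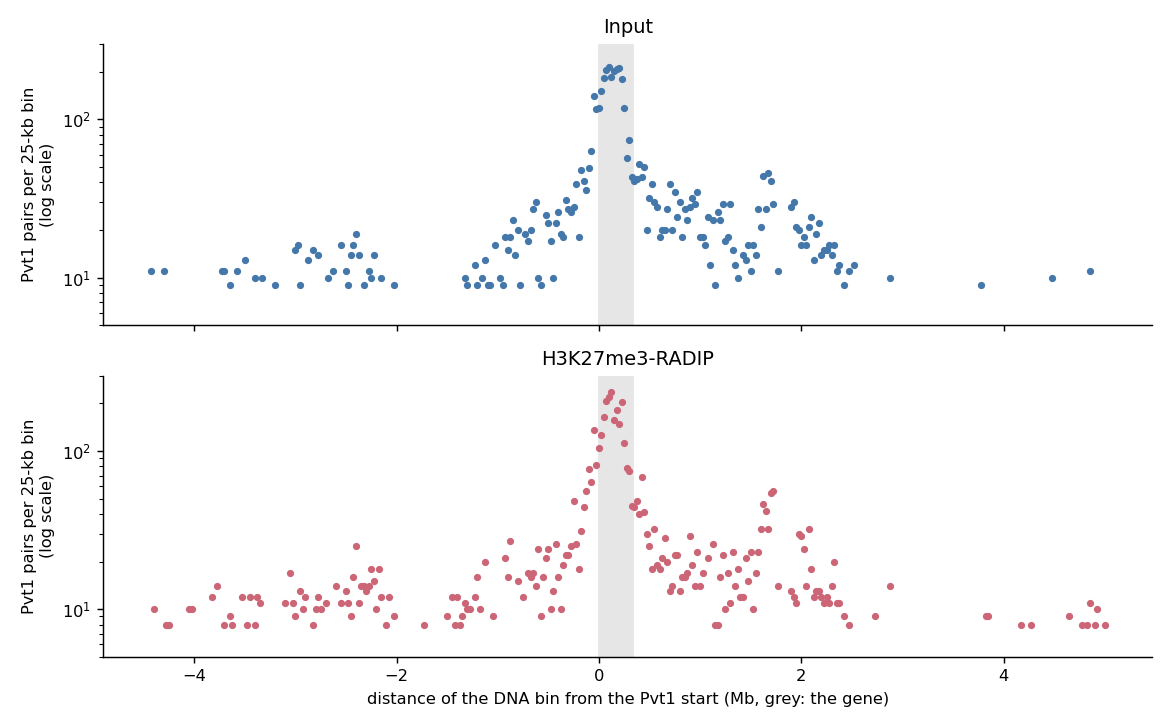
*Pvt1* pairs in each listed 25-kb bin (log axis) by the distance of the bin from the start of *Pvt1*, within 5 Mb, in Input (top) and H3K27me3-RADIP (bottom); the grey band is the gene. Counts peak over the gene, at up to 216 and 235 pairs, and a second group of bins stands at 1.6 to 1.7 Mb downstream in both libraries.

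*Pvt1* was listed with 179 bins in Input and 230 in H3K27me3-RADIP, and 148 were in common (82.7% and 64.3%). Of the bins in both, 14 were higher past the limit of 0.5 and 45 lower, with a median log2 ratio of -0.19, and 2 of the higher and 13 of the lower had an interval that left out 0. Among 1377 combinations of other lncRNAs and bins in both libraries 20.6% were higher and 17.5% lower, and among 48458 of all other RNAs 15.6% and 22.7%. Those listed in Input alone numbered 31, with at most 23 pairs, and those in H3K27me3-RADIP alone 82, with at most 18. The smallest bin listed had 9 Input pairs against 8 H3K27me3-RADIP pairs, so a bin with 8 *Pvt1* pairs could enter only the second table. Restricted to bins with at least 10 pairs, the numbers were 159 and 175.

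Over 5 Mb from the start of *Pvt1*, 5 bins were listed in Input and 30 in H3K27me3-RADIP, and 0 in both. Of other RNAs' *cis* combinations with a bin over 5 Mb away and at most 13 pairs, 36.8% of 424 in Input were also listed in H3K27me3-RADIP and 7.37% of 1615 in H3K27me3-RADIP were also listed in Input, so that most such combinations of other RNAs too were in 1 library only. At 9 pairs or more there were 5 and 19, and at 10 pairs or more 1 and 8. In H3K27me3-RADIP, 15 of the 30 bins held the start of a protein-coding gene (50%, 95% Wilson interval 33.2 to 66.8), against 17 of the 200 *Pvt1* bins nearer by (8.50%) and 24.8% of the 1721 chromosome 15 bins over 5 Mb from *Pvt1* listed for any RNA, local RNAs included. The interval treats the bins as independent, although 5 of the 30 lie close together at the *Hoxc* genes. The bin with most pairs, 13, was that of *Mapk8ip2*, a scaffold protein gene of neurons, 27.4 Mb away. Others with a start site included *Mafa*, a transcription factor of pancreatic beta cells (10 pairs), *Col2a1*, the collagen gene of cartilage (9), *Slurp1* with *Lypd2* and *Slurp2* (11), *Panx2* (8), *St3gal1* (9), the general transcription factor gene *Taf2* (8), *Retreg1* (8), *Trappc9* (9), *Micall1* (8), *Acr* (9), and *Jrk* with *Psca* and *Them6* (9). The 5 Input bins lay at *Slc45a4*, *Atxn10*, *Ttll8*, *Pus7l* and *Zfp385a*, with 9 or 10 pairs each, and 3 of the 5 held a protein-coding start site (*Slc45a4*, *Ttll8* and *Zfp385a*).

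In H3K27me3-RADIP, 5 of these bins lay over or beside the *Hoxc* cluster of body-axis transcription factor genes, 40.9 to 41.0 Mb from *Pvt1*, with 45 pairs (38 at distinct positions) where Input listed 0. The pairs per bin were 10 at *Hoxc12*, 10 at *Hoxc9*, *Hoxc8* and *Hoxc6*, 8 at *Hoxc4*, and 8 and 9 in the next bins. Their q-values ran from 0.00694 to 0.0934, and 2 of the 5 passed 0.01. RNAs of the cluster itself were listed more in the same window in H3K27me3-RADIP, *Hoxc5* with 9 pairs in Input and 47 in H3K27me3-RADIP and the neighbour *Cbx5* with 8 and 38. *Pvt1* was not alone in reaching this window from afar: *Ext1* of chromosome 15 and *Gm22973* of chromosome 12 had 9 pairs each at *Hoxc9*, *Hoxc8* and *Hoxc6* in H3K27me3-RADIP and 0 in Input. Of the 30 far bins, this bin and that of *Slurp1* were the 2 with another RNA listed from over 5 Mb away.

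**Figure D5:**
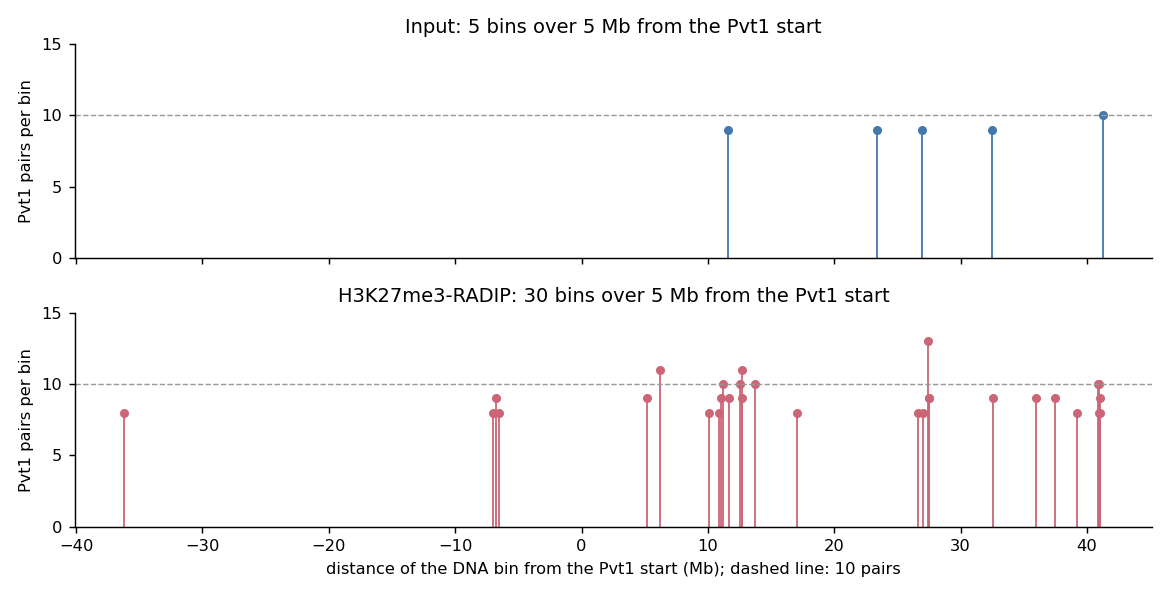
*Pvt1* pairs in each listed 25-kb bin more than 5 Mb from the start of *Pvt1*, by distance, in Input (5 bins, 9 or 10 pairs) and H3K27me3-RADIP (30 bins, 8 to 13 pairs); the dashed line marks 10 pairs. The 5 rightmost H3K27me3-RADIP bins are those at *Hoxc*.

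The far pairs came mainly from intron tags, as *Pvt1* pairs did in general. In H3K27me3-RADIP 260 of 5722 intronic pairs (4.54%, 4.03 to 5.11) and 7 of 92 exonic pairs (7.61%, 3.73 to 14.9) spanned more than 5 Mb, with overlapping intervals. In Input it was 46 of 5513 and 0 of 107, where 0 of 107 allows a share of up to 3.47% (Wilson). Repeated pairs, with both tags at the same positions, made up 6.39% of *Pvt1* pairs in Input and 10.1% in H3K27me3-RADIP, near the 6.79% and 9.74% of all pairs. In the *Pvt1* bins over 5 Mb they were more frequent, 13% of 46 pairs in Input and 17.6% of 272 in H3K27me3-RADIP, against 10.9% and 12.8% in the *cis* combinations of other RNAs over 5 Mb with at most 13 pairs. With repeated positions counted once, 3 of the 5 Input bins and 16 of the 30 H3K27me3-RADIP bins held fewer pairs than the smallest *Pvt1* bin listed. The share of *Pvt1* pairs over 5 Mb was then 0.760% and 4.23%.

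The genes whose proteins act on host transcripts were read from the same tables. Of 25 such genes, 20 had at least 20 pairs together and both libraries listed; 2 were higher past the limit and 5 lower, where 21.2% of 7660 protein-coding names were higher and 22.9% lower. Among box C/D snoRNP proteins, *Nop58* fell from 324 to 177 pairs (log2 ratio -0.90, -1.18 to -0.64) and the methyltransferase gene *Fbl* had 57 and 58. *Nop56* was lower, with 47 and 31 (-0.63, -1.34 to 0.05), and *Snu13* higher, with 8 and 13 (0.67, -0.71 to 2.14), both with intervals that included 0. Among box H/ACA proteins, *Dkc1*, the pseudouridine synthase gene, fell from 80 to 33 (-1.31, -1.94 to -0.71) and *Nhp2* had 67 and 66. These groups were thus mixed within themselves.

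In nonsense-mediated decay 0 of 8 were higher and 1 lower, beside 21.2% and 22.9% of the 7660 protein-coding names. The lower one was the kinase gene *Smg1*, from 162 to 87 pairs (-0.93, -1.32 to -0.54), while *Upf1*, the central helicase gene, had 90 and 124. In miRNA processing *Dicer1* rose from 76 to 134 (0.79, 0.37 to 1.21) and *Ago1* had 29 and 16 (-0.89, -1.87 to 0.04), and *Drosha*, *Dgcr8*, *Xpo5* and *Ago2* lay within the limit. The median of all 20 was -0.11, against 0.00 over the protein-coding names.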

How the data were processed

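RNA–DNA pairs of PGK12.1 mESCs were read from 2 tables, each merged by the authors from 8 labelled libraries. The authors mapped tags to mm10 with BWA (0.7.15-r1140 in the submitters' notes, which also name CASAVA 1.8.2 and STAR 2.5.0a; their methods give STAR for public RNA-seq reads), annotated RNA tags by strand with GENCODE M25, assigned DNA tags to 25-kb bins and kept pairs up to a q-value of 0.1. The deposited values are p-values and q-values of their modified CHiCANE background model. No counts are given, so lines were counted (Input 1305107, H3K27me3-RADIP 1415135); at these depths 3 pairs make 0.000230% and 0.000212%.

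Gene positions came from GENCODE M21 on the same build; 16 of 19 member identifiers matched with their version. TMM (trims of 30% and 5%; log2 offsets of 0.13 for lncRNAs and 0.03 for protein-coding names) was coded in Python 3.11.15 (numpy 2.4.6, pandas 2.3.3, scipy 1.17.1, matplotlib 3.10.9) and tested on simulated data. Intervals are 95% and, without molecular identifiers, cover counting error only. Alternatives were the q-value limit, repeated positions, scaling, minimum pairs, distance definition and equal weights. All members with a pair were named, with full values from 20 pairs. Members and gene lists were chosen with earlier results of these data known. Data before background removal were not used here.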

Additional observations from a re-analysis of the deposited data

How the results depend on the processing

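No paired analysis was possible because the authors merged the libraries of each condition into 1 table, and for the same reason no replicate could be left out. With q at most 0.01, members higher past the limit numbered 1 instead of 3, the *Snhg15* ratio turned from -0.76 to 0.34, the shares of lncRNA pairs were 18.9% and 14.5% (difference -4.34 points), and *Pvt1* had a median distance of 285 and 299 kb, 25.4% and 30.2% of pairs over 1 Mb, 0.184% and 1.59% over 5 Mb, and 1 and 8 bins over 5 Mb; the median of all members in H3K27me3-RADIP was 206 kb. At least 10 pairs per bin also left 1 and 8 such bins, and at least 9, chosen after the data were seen, 19 in H3K27me3-RADIP. Without *Kcnq1ot1* and *Malat1* the shares were 19.6% and 17.6% (difference -1.94 points). With equal weights the exonic shares were 38.9% and 46.8% and the medians of all members 3.32 and 3.23 kb; over the 14 RNAs in both libraries they were 42.7% and 45.7%, and 3.32 and 4.79 kb. With TMM over all RNA names 4 members were higher, *Snhg1* added, and with repeated positions once 6 were lower, *Snhg5* added. At 50 pairs together 3 members were lower, and outside the RNA tag's bin 1 was higher and 3 lower. Pathway genes that were higher numbered 1 with repeated positions once and at 50 pairs together, and 4 outside the RNA tag's bin. The cause was not tested, except that the stricter limits keep fewer bins by construction. Of 35 values of single RNAs recomputed from other pairs (stricter q, repeated positions once, outside the bin of the RNA tag), 32 stayed on their side of the fold limit, 1 reversed, 1 passed it and 1 no longer did (*Mir9-3hg*, 0.47 with q at most 0.01). With q at most 0.01 *Mir100hg* moved from 1.25 to 2.27 and *Dleu2* from -1.04 to -0.51, and outside the bin of the RNA tag *Dleu2* was -1.79. Both other scalings shift every RNA by a constant. *Mir670hg* had no value with q at most 0.01 or outside the bin of its RNA tag. The *Pvt1* ratio ran from -0.24 to 0.01. Depth limits the smaller RNAs: *Snhg5*, with 15 and 12 pairs, had an interval from -1.67 to 0.75.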
